A study of Arabidopsis thaliana with 5 samples.

Results

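The cutin synthesis enzymes described here are 10 Arabidopsis thaliana genes chosen by name for their place in the pathway. They are LACS1, LACS2, LACS3, GPAT4, GPAT8, CYP86A2, CYP86A4, CYP86A8, DCR and BDG1. The choice was made with earlier results of these data known. All 10 were found by gene identifier among the 24200 genes of the deposited table, and all 10 were among the 20391 genes that passed the filter on low values. Transcripts were sequenced in leaf epidermal cells sorted from seedling protoplasts at 9 days post germination, in 3 wild-type (WT) libraries and 2 hdl libraries, the mutant seed being hdl-1. Seeds of both genotypes were kept cold for 2 days and plants were grown on MS medium in long days; all libraries carry batch number 1. Plants of both genotypes carried the reporter AtML1pro:RCI2A-mCherry, in which the promoter of ATML1, an epidermal homeodomain gene, drives a red membrane protein, and about 20000 red cells per sample were collected by sorting. How many seedlings were pooled per sample, and whether replicates came from separate plantings, is not stated in the labels, so each p-value reflects the spread among these samples alone, which may be technical. The comparison asks how these transcripts differ between sorted cells of WT and hdl.

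Cutin is the polyester that forms the matrix of the plant cuticle on the outer face of the epidermis. Its monomers are fatty acids that cytochrome P450 enzymes of the CYP86A group hydroxylate at the chain end, that long-chain acyl-CoA synthetases (LACS) activate to acyl-CoAs, and that glycerol-3-phosphate acyltransferases (GPAT) such as GPAT4 and GPAT8 join to glycerol. DCR is an acyltransferase of the BAHD family needed for normal cutin, and BDG1 is an extracellular hydrolase-fold protein needed for an intact cuticle. In leaves cutin limits water loss and keeps organs from fusing.

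In hdl, 5 of the 10 genes were called higher and 0 lower (limma, Benjamini-Hochberg adjusted p under 0.05 over all tested genes), against 8.21% of all tested genes called higher and 4.5% called lower. The called genes were LACS3, LACS2, CYP86A2, BDG1 and GPAT4. The median log2 change of the 10 genes was 1.09, and that of all tested genes was -0.05. In 9 of the 10 genes both hdl libraries lay above all 3 WT libraries, as they did for 26.7% of all tested genes, and in 0 both lay below (26.9%); LACS1 overlapped. Values below are DESeq2-normalized counts as the authors deposited them, and log2 changes are on the log2(value + 1) scale, which shrinks changes of low genes, although a library at 0 can enlarge them, as for CYP86A4. In these bulk samples more cells of a type and more RNA per cell cannot be told apart.

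**Figure D1:**
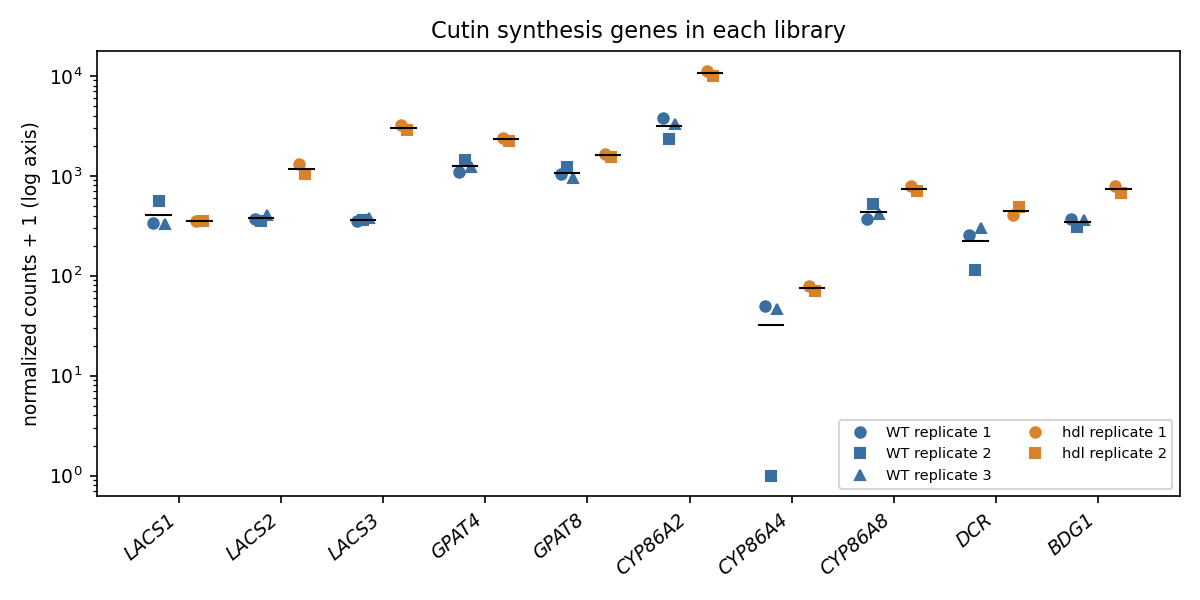
Normalized counts plus 1 (log axis) of the 10 cutin synthesis genes in each of the 3 WT (blue) and 2 hdl (orange) libraries; black lines are group means. LACS3 separates most widely, with 351 to 374 in WT and 2839 and 3227 in hdl, LACS1 overlaps between genotypes, and CYP86A4 has 0 reads in WT replicate 2.

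With the smallest value above 0 in each library taken as 1 read, the libraries held 15418154 to 22838239 gene reads. Size factors matched the deposited ones only with 2 counts per such step in hdl replicate 1. Every count of that library would then be a multiple of 2, unlike in the other libraries. Its reads, here and for single genes below, are given at 1 per step. Whether 1 or 2 per step is nearer its number of separate reads was not tested. The normalized counts of all genes summed to 19046245 to 20079270 in WT and to 24387425 and 24709399 in hdl. Scaling the libraries to equal totals moved the median change of all tested genes from -0.05 to -0.37, so changes are read relative to that shift, and the call or direction is given where it ends or turns. WT replicate 2 stood apart for several of the 10 genes: it was highest in WT for LACS1, GPAT4, GPAT8 and CYP86A8 and lowest for LACS2, CYP86A2, CYP86A4, DCR and BDG1. Without it, 8 of the 10 genes were called higher, against 17.5% of all tested genes. Without WT replicate 1, WT replicate 3 or hdl replicate 2, 3 of the 10 were called higher in each case, against 3.92%, 1.83% and 2.44% of all tested genes. Without hdl replicate 1, 0 of the 10 and 0.0% of all genes were called higher, with the lone hdl library assumed to vary like the WT libraries. The count was 5 with edgeR (7.97% of all tested genes) and with no filter (6.45%), 6 with a pseudocount of 10 (9.07%), 7 with DESeq2 (12.8%), 4 with libraries at equal totals (4.87%), and 4 of 8 tested when genes overlapping an opposite-strand gene were left out (10.1%). At an unadjusted p under 0.05 in the fit of all libraries, all genes but LACS1 and CYP86A4 passed, with DCR nearest to that limit at 0.0407; of all tested genes, 16.6% were higher and 15.4% lower at this limit. HDL transcript levels were not analysed here.

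Among the acyl-CoA synthetases, LACS3 rose most. LACS3 (AT1G64400, TAIR10.1 chromosome 1, 23915570 to 23919835, minus strand) belongs to the same family as the cutin enzyme LACS2, but its own part in the cuticle is less well defined. The WT libraries, in order of replicate number, held 351, 357 and 374 normalized counts, and the hdl libraries held 3227 and 2839. The WT libraries lay within a narrow range, and both hdl libraries lay far above it. Its mean of 3033 ± 274 in hdl (SD, n = 2) was 8.41-fold higher than that of 361 ± 11.6 in WT (SD, n = 3), and the log2 change was 3.07 ± 0.14 (SE, limma adjusted p = 0.00298). The reads recovered behind these values numbered 279 to 448 per library in WT and 2392 and 2298 in hdl replicates 1 and 2. Those of hdl replicate 1 are counted at 1 per step. LACS3 was called in 10 of 12 alternative fits, with log2 changes from 2.74 to 3.16.

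The 300 bases upstream of the annotated start of LACS3 (chr1:23919836-23920135 in TAIR10.1, shown 5′ to 3′ on the gene's strand) are shown because this gene moved most; the capitals mark the single match to the L1 box, the letters TAAATGCA or TAAATGTA on either strand, a motif bound by epidermal homeodomain proteins such as ATML1.
LACS3: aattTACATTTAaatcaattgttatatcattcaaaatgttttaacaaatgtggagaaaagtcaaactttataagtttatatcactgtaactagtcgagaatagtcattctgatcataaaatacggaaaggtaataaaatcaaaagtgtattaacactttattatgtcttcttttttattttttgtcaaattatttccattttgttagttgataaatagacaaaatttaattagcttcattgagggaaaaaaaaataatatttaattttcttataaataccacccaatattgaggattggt
The match starts 296 bases upstream of the start and lies on the opposite strand. It thus lies outside the 250-base windows searched for all genes. The share of all genes with an L1 box in 300 bases was not counted. In the 250 bases upstream of each start, 0 of the 10 genes held an L1 box, against 4.53% of 24107 windows of all genes in the table. The same windows held 0 matches to the core of the GCC box (GCCGCC; 1.96% of all windows), bound by ERF proteins, and 0 to the AC element (ACCTACC or ACCAACC; 3.86%), bound by some MYB proteins. In a 1000-base window, searched after the shorter one gave no match, LACS3 and BDG1 held an L1 box (15.5% of all windows), GPAT4 held the GCC box core (8.73%) and 0 genes held an AC element (14.6%). A match is a sequence description and not a binding site.

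LACS2 rose and LACS1 was not called. LACS2 (AT1G49430, chromosome 1, 18290942 to 18295905, plus strand) acts in cutin synthesis in leaves. It had 369, 352 and 401 normalized counts in WT and 1306 and 1050.0 in hdl, with no overlap between genotypes. It was 3.15-fold higher in hdl, with a log2 change of 1.65 ± 0.17 (SE, limma adjusted p = 0.00628). LACS1, also named CER8 (AT2G47240, chromosome 2, 19392497 to 19397907, plus strand), acts in both wax and cutin synthesis. It had 337, 552 and 330 normalized counts in WT and 349 and 351 in hdl, so the hdl libraries lay inside the WT range. Its log2 change was -0.17 (95% confidence interval -0.83 to 0.48, limma adjusted p = 0.69), and without WT replicate 2, the highest library, it was 0.07 (adjusted p = 0.745).

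The ratio of LACS2 to LACS1 does not depend on how libraries are scaled. On the log2 scale it was 0.13, -0.65 and 0.28 in WT and 1.90 and 1.58 in hdl, a difference of 1.82. The ratio of LACS2 to LACS3 was near 0 in WT, at 0.07, -0.02 and 0.10, and was -1.30 and -1.43 in hdl, a difference of -1.42. Neither ratio overlapped between genotypes. With 3 against 2 libraries an exact two-sided permutation test cannot go below 0.1, which both ratios reached (0.25 adjusted over the 5 ratios compared).

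Levels per kb of annotated exon show the make-up of the LACS family in each library. LACS3 made up 4.93, 5.12 and 5.38% of the summed per-kb level of 8 LACS genes in WT, and 25.4 and 24.2% in hdl. LACS2 made up 4.31, 4.20 and 4.80% in WT and 8.54 and 7.45% in hdl. LACS1 made up 3.64, 6.08 and 3.66% in WT and 2.11 and 2.30% in hdl. LACS4, the most abundant of the family, made up 54.9, 59.3 and 56.4% in WT and 40.2 and 39.7% in hdl. LACS3 thus stood at about the level of LACS2 and LACS1 in WT and was the second most abundant LACS gene in hdl, after LACS4. Apart from the 3 genes above, LACS8 was called higher among 5 tested LACS genes, by 1.26 (limma adjusted p = 0.00695), and 0 were called lower.

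**Figure D2:**
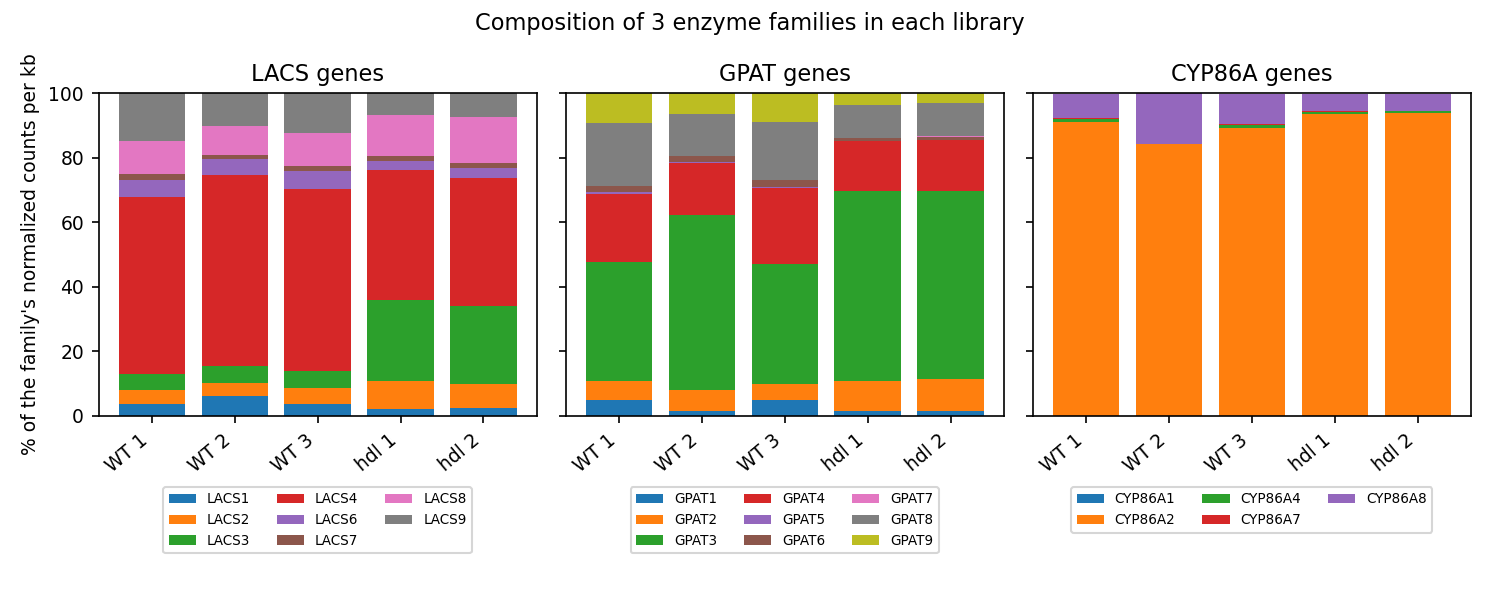
Share (%) of each gene in the summed normalized counts per kb of exon of its family, for 8 LACS, 9 GPAT and 5 CYP86A genes, in each WT and hdl library. LACS3 takes 4.93 to 5.38% of the LACS total in WT and 24.2 and 25.4% in hdl, and CYP86A2 takes 84.4 to 91.0% of the CYP86A total in WT and 93.8% in both hdl libraries.

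Of the fatty acid hydroxylases, CYP86A2 rose, and CYP86A8 and CYP86A4 were not called. CYP86A2, also named ATT1 (AT4G00360, chromosome 4, 160643 to 163023, plus strand), had 3761, 2344 and 3267 normalized counts in WT and 11178 and 10051 in hdl. It was the most abundant of the 10 genes per kb in both genotypes. The groups did not overlap, and its mean was 3.40-fold higher in hdl, with a log2 change of 1.79 ± 0.22 (SE, limma adjusted p = 0.00851). CYP86A2 shares 127 bases with the opposite-strand gene ANTR2, a phosphate transporter family gene, which was also called higher, by 1.59 (limma adjusted p = 0.0146), and 782 bases with the opposite-strand noncoding RNA AT4G03585, which was not analysed here. ANTR2 had 661 to 1157 normalized counts in WT and 2623 and 2754 in hdl, below CYP86A2 in every library. Whether counting used strand is not stated in the labels, and the part of these neighbours in the CYP86A2 value was not tested.

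CYP86A8, also named LACERATA (AT2G45970, chromosome 2, 18912095 to 18914739, minus strand), hydroxylates fatty acids and is needed to keep epidermal surfaces separate. It had 372, 516 and 414 normalized counts in WT and 782 and 702 in hdl. Both hdl libraries lay above WT, but the log2 change of 0.78 ± 0.20 (SE, 95% confidence interval 0.31 to 1.26) did not pass (limma adjusted p = 0.0513). It passed in 4 of 12 alternatives, among them without WT replicate 2 (0.91, adjusted p = 0.00442), and with libraries at equal totals it was 0.46 (adjusted p = 0.144).

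CYP86A4 (AT1G01600, chromosome 1, 218834 to 221286, plus strand), a hydroxylase best known from flower cutin, was the least abundant of the 10 genes in both genotypes. It had 48.8, 0 and 45.0 normalized counts in WT and 78.2 and 69.2 in hdl, from 46, 0 and 54 reads and from 58 and 56 reads. The 58 reads of hdl replicate 1 are counted at 1 per step. WT replicate 2, with 0 reads, lay far below the other WT libraries; a count of 0 allows up to 3 reads there, or 3.84 normalized counts, for counting error alone. The log2 change of 2.5 had a 95% confidence interval of -1.70 to 6.70 (limma adjusted p = 0.357), and without WT replicate 2 it was 0.64 (adjusted p = 0.253). Its mean was 2.36-fold higher in hdl on the linear scale.

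CYP86A2 and CYP86A4 are shown upstream of their starts because, of all 45 pairs of the 10 windows of 250 bases, theirs share the longest exact run, 24 bases, marked in capitals; the next longest run, 15 bases between LACS1 and GPAT8, is a TA repeat. The windows are chr4:160393-160642 for CYP86A2 and chr1:218584-218833 for CYP86A4 in TAIR10.1, both on the plus strand and 5′ to 3′.
CYP86A2: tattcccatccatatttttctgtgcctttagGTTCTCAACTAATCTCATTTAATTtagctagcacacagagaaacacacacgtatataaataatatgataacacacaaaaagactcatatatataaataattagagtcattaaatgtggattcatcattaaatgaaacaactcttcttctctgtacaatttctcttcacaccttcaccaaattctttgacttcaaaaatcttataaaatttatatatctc
CYP86A4: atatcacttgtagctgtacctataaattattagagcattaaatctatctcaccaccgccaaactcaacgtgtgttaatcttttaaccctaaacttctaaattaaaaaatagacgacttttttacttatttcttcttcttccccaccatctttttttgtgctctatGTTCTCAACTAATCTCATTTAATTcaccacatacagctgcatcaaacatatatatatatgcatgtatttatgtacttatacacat
The run starts 219 bases upstream of CYP86A2 and 85 bases upstream of CYP86A4. Despite it, the levels of the genes were far apart: per kb of exon, the WT mean was 1410 ± 325 normalized counts for CYP86A2 and 13.5 ± 11.7 for CYP86A4 (SD, n = 3). Within the transcripts, CYP86A2 and CYP86A4 share an exact run of 50 bases, and the other pairs of paralogues among the 10 genes share at most 35, so reads shorter than such a run could be split between paralogues; the labels do not state read length.

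The log2 ratio of CYP86A8 to CYP86A2 was -3.33, -2.18 and -2.98 in WT and -3.83 and -3.84 in hdl, a difference of -1.01 (exact two-sided permutation p = 0.2, adjusted p = 0.25). All hdl ratios lay below all WT ratios, with WT replicate 2 the highest. The ratio of CYP86A4 to CYP86A2 overlapped between genotypes (difference 0.71, exact p = 1.0), and its sign rested on WT replicate 2: without that library the difference was -0.96.

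Of the glycerol acyltransferases, GPAT4 rose, and GPAT8 narrowly did not pass. GPAT4 and GPAT8 act redundantly in leaf and stem cutin synthesis. GPAT4 (AT1G01610, chromosome 1, 221642 to 224351, minus strand) had 1079, 1428 and 1218 normalized counts in WT and 2386 and 2241 in hdl, 1.86-fold higher, with a log2 change of 0.91 ± 0.16 (SE, limma adjusted p = 0.0212). GPAT8 (AT4G00400, chromosome 4, 173953 to 176870, minus strand) had 1030.0, 1223 and 957 in WT and 1661 and 1550.3 in hdl, 1.50-fold higher, with a log2 change of 0.59 ± 0.16 (SE, 95% confidence interval 0.21 to 0.98, limma adjusted p = 0.059). In both genes both hdl libraries lay above WT. With libraries at equal totals GPAT4 was at 0.58 and no longer passed (adjusted p = 0.0576), and GPAT8 was at 0.27 (adjusted p = 0.238); without WT replicate 2 GPAT8 was at 0.69 and passed (adjusted p = 0.00373).

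The log2 ratio of GPAT4 to GPAT8 was 0.07, 0.22 and 0.35 in WT and 0.52 and 0.53 in hdl, a difference of 0.31. That is a small shift, and the exact two-sided permutation p was 0.2 (0.25 adjusted over the 5 ratios). Of 6 other tested GPAT genes, GPAT2 rose by 2.02 (limma adjusted p = 0.0194) and GPAT3 by 1.73 (adjusted p = 0.0467), and 0 were called lower. With libraries at equal totals GPAT3 no longer passed (adjusted p = 0.0622) and GPAT5, a suberin enzyme gene, was called lower (-3.83, adjusted p = 0.0471; -3.63 and 0.0672 as normalized by the authors). GPAT5 rests on few reads, 22 to 30 per library in WT and 0 and 3 in hdl. GPAT6, which acts in flower cutin, was at -0.07 (adjusted p = 0.883), and GPAT5 and GPAT6 were picked with their values known. In the 9-gene GPAT family GPAT4 made up 21.4, 16.1 and 23.6% of the per-kb level in WT and 15.6 and 15.9% in hdl, so its share was not higher in hdl although its level was, and GPAT3 made up 36.8, 54.3 and 37.3% in WT and 59.0 and 58.2% in hdl.

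Of the 10 genes, a hydroxylase gene and a GPAT gene lie near each other in 2 places in the genome. CYP86A4 and GPAT4 are neighbours on chromosome 1, facing each other with 355 bases between their ends and 0 annotated genes between them. CYP86A2 and GPAT8 lie on chromosome 4 with 10929 bases and 3 annotated genes between them. Within each neighbourhood the genes did not have the same call: GPAT4 was called and CYP86A4 was not, and CYP86A2 was called and GPAT8 was not; whether their changes differ was not tested.

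BDG1 rose and DCR was not called. BDG1 (AT1G64670, chromosome 1, 24030743 to 24033674, minus strand) had 372, 305 and 361 normalized counts in WT and 786 and 669.5 in hdl. It was 2.1-fold higher in hdl without overlap, with a log2 change of 1.07 ± 0.18 (SE, limma adjusted p = 0.0191). BDG1 shares 38 bases with the opposite-strand gene MGL, encoding methionine gamma-lyase, which was not called (-0.52, limma adjusted p = 0.416). DCR, named PEL3 in the annotation (AT5G23940, chromosome 5, 8076312 to 8079866, minus strand), had 256, 114 and 302 in WT and 407 and 489 in hdl. Both hdl libraries lay above WT, and WT replicate 2 lay well below the other WT libraries. The log2 change of DCR was 1.11 ± 0.43 (SE, 95% confidence interval 0.06 to 2.15, limma adjusted p = 0.139), and without WT replicate 2 it was 0.68 and passed (adjusted p = 0.0336).

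**Figure D3:**
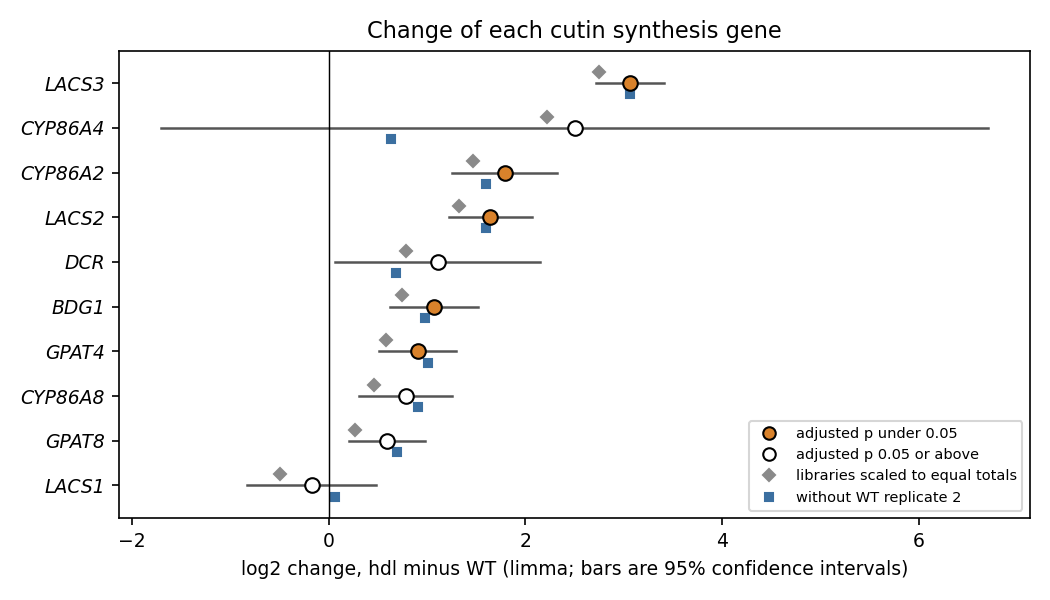
Log2 change (hdl minus WT) of each cutin synthesis gene with its 95% confidence interval; filled circles have an adjusted p under 0.05, grey diamonds are values with libraries at equal totals and blue squares are values without WT replicate 2. LACS3 lies at 3.07, and CYP86A4 has the widest interval, from -1.70 to 6.70.

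The order of the 10 genes by level per kb of exon differed between genotypes. In WT the order was CYP86A2 at 1410 ± 325, GPAT4 at 648 ± 91.8, GPAT8 at 536 ± 69.0, BDG1 at 186 ± 19.5, CYP86A8 at 164 ± 28.0, LACS3 at 151 ± 4.87, LACS1 at 131 ± 40.7, LACS2 at 131 ± 8.66, DCR at 115 ± 50.3 and CYP86A4 at 13.5 ± 11.7 normalized counts per kb (SD, n = 3). The WT ranges of GPAT4 and GPAT8 overlapped, as did those of each pair of neighbours from BDG1 down to DCR. In hdl LACS3 was second at 1272 ± 115 (SD, n = 2), overlapping GPAT4 at 1208 ± 53.7, while CYP86A2 stayed first at 4792 ± 360. LACS2 stood at 411 ± 63.1 and overlapped BDG1 at 392 ± 44.5, and LACS1 was second lowest at 113 ± 0.33.

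The other genes of cutin and cuticle assembly were, in part, higher as well. Of 11 tested genes 4 rose and 0 fell: ABCG32 and ABCG11, cuticle precursor exporters, by 1.05 (limma adjusted p = 0.00853) and 1.1 (adjusted p = 0.0129), DCF, a feruloyl transferase of cutin, by 1.13 (adjusted p = 0.0147), and the GDSL lipase gene LTL1 by 1.13 (adjusted p = 0.0439). LTL1 no longer passed with libraries at equal totals (adjusted p = 0.0803), and ABCG11 overlaps an opposite-strand gene. The median of the list was 0.96. Not called were, among others, the cytochrome P450 genes CYP77A6 at 1.83 (adjusted p = 0.15) and CYP77A4 at -1.66 (adjusted p = 0.144) and the cuticle gene HTH at 0.96 (adjusted p = 0.079); these 3 were picked with their values known. HTH passed with DESeq2 (adjusted p = 0.0285) and without WT replicate 2 (adjusted p = 0.0154), and CYP77A6 passed without WT replicate 2 (adjusted p = 0.0438). CYP77A4 had 199.8 to 254 normalized counts in WT and 31.0 and 163 in hdl, so its lowest library was hdl replicate 1. CYP77A4 overlaps an opposite-strand gene.

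Upstream of the LACS step, 1 of 10 genes of plastid fatty acid supply rose and 0 fell, with a median of 0.33. The called gene was FAB2, also named SSI2, a stearoyl carrier protein desaturase gene, at 1.25 (limma adjusted p = 0.0212). Of 6 tested cuticle regulators 0 were called, with MYB16, a MIXTA-type MYB gene, at 0.74 (adjusted p = 0.282) and DEWAX, a wax repressor gene, at 0.07 (adjusted p = 0.923); DEWAX turned to -0.25 with libraries at equal totals, and MYB16 passed without WT replicate 2 (1.17, adjusted p = 0.0076). At an unadjusted p under 0.05, with edgeR and with DESeq2 the count was also 0. The SHN1, SHN2 and SHN3 genes, activators of cuticle genes, lay below the filter, with at most 8.65 normalized counts in any library. Of 5 tested suberin genes, which mark root barrier tissues, 0 were called by limma, with FAR1 at 0.19 (adjusted p = 0.651) and KCS2 at 1.88 (adjusted p = 0.0687); 2 passed at an unadjusted p under 0.05, 1 in each direction (16.6% of all tested genes were higher and 15.4% lower at this limit), 0 with edgeR and 2 with DESeq2. Those 2 were KCS2, at a DESeq2 adjusted p of 0.0178 and overlapping an opposite-strand gene, and GPAT5, at 0.0136. GPAT5 had only 0 and 3 reads in hdl. FAR1 turned to -0.13 with libraries at equal totals.

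**Figure D4:**
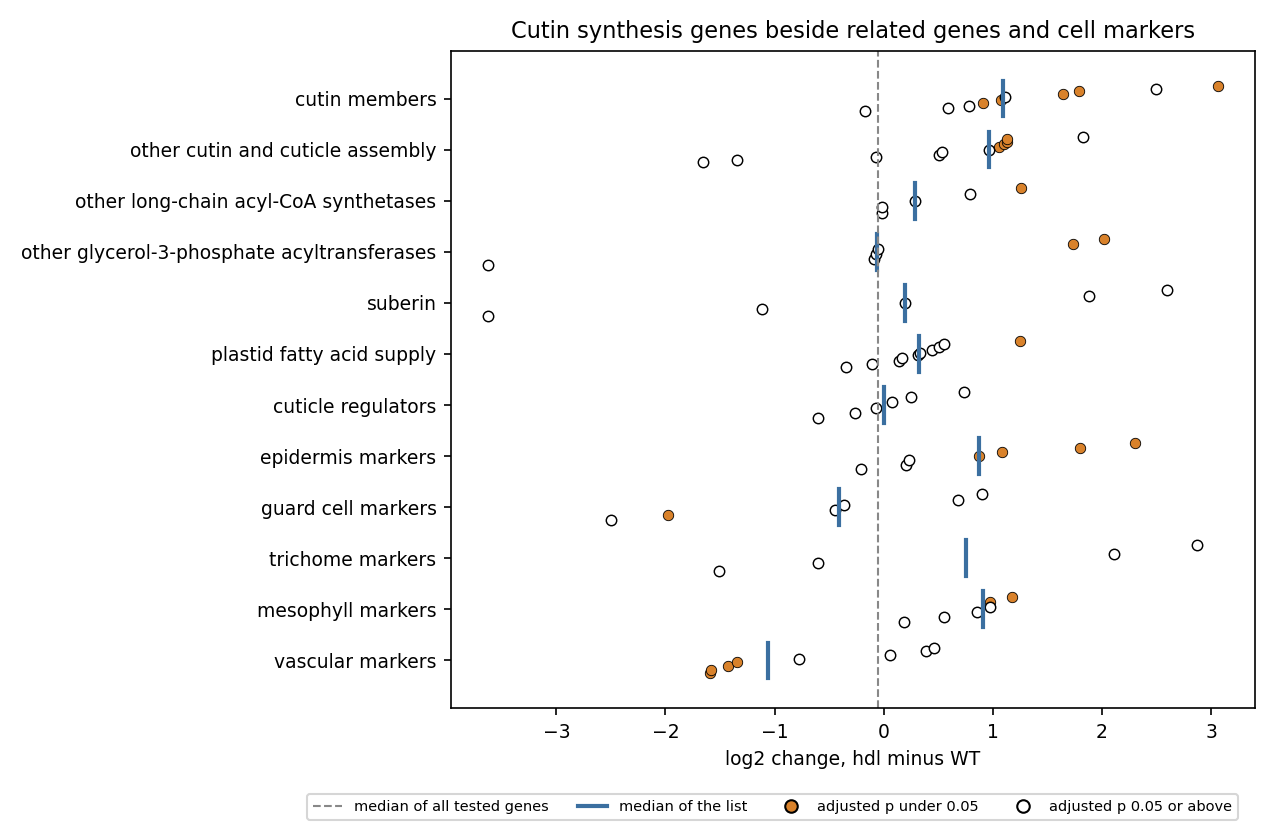
Log2 change (hdl minus WT) of every tested gene in the cutin synthesis set and 11 other lists; filled points have an adjusted p under 0.05, blue bars are list medians and the dashed line is the median of all tested genes. The median is 1.09 for the cutin synthesis genes, 0.96 for the other cutin and cuticle genes and -1.06 for the vascular markers, against -0.05 for all tested genes.

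Markers of epidermis and of other cell types also differed between genotypes. Among 7 epidermis markers 4 rose, namely CER6 by 1.80, LTP1 by 2.30, FDH by 1.08 and PDF2 by 0.87 (limma adjusted p at most 0.0202), while the other 3, ATML1 at 0.23, ACR4 at 0.21 and PDF1 at -0.21, were not called; ATML1 and ACR4 turned to -0.09 and -0.12 with libraries at equal totals. Of the called genes, CER6 and FDH encode fatty acid elongases and LTP1 a lipid transfer protein. The summed level of the 7 markers was 21799 to 24493 normalized counts in WT and 66983 and 59671 in hdl. Most of this rise lay in LTP1, CER6 and FDH. Their means went from 6088 to 29182, from 4452 to 15218 and from 4265 to 9048. The summed level of the 6 mesophyll markers was 404472 to 541732 normalized counts in WT and 804163 and 770266 in hdl. GAPA1 rose by 1.18 and RBCS2B by 0.98, and 0 fell. RBCS2B no longer passed with libraries at equal totals (adjusted p = 0.0638). Not called by limma were RBCS1A, the largest part of the sum, at 0.85 (adjusted p = 0.128), CA1 at 0.97 (0.0519), LHCB2.1 at 0.56 (0.0756) and LHCB1.1 at 0.18 (0.602). The first 3 passed with DESeq2 (adjusted p at most 0.00254). LHCB1.1 turned to -0.14 with libraries at equal totals. The summed level of the 8 vascular markers was 46360.4 to 74781 in WT and 28836 and 26632 in hdl. ATHB15, APL, SEOR1 and XCP2 fell by 1.42, 1.35, 1.59 and 1.59, and 0 rose. The other 4 were not called: ATHB8 was at -0.78, and the phloem transport genes SUC2, SWEET11 and SWEET12 were at 0.39, 0.46 and 0.06, SWEET12 turning to -0.26 with libraries at equal totals. SEOR1 and XCP2 held most of the vascular sum. Of 6 guard cell markers 1 fell, FAMA by 1.98, and 0 rose. OST1 was at 0.90 (adjusted p = 0.0503, and 0.00589 with DESeq2), MYB60 at 0.68, KAT1 at -0.45, GORK at -0.37 and SLAC1 at -2.5. SLAC1, which overlaps an opposite-strand gene, had 161 to 204 normalized counts in WT and 8.09 and 119 in hdl. The guard cell sum was 737 to 1029 in WT and 669 and 919 in hdl. Of 4 tested trichome markers 0 were called, also at an unadjusted p under 0.05 and with edgeR and DESeq2, and the median was 0.75. GL1 was at 2.87 (limma adjusted p = 0.192) and TRY at 2.11 (adjusted p = 0.32), each with a WT library at 0. GL1 had 0 to 8.49 normalized counts in WT and 21.6 and 17.3 in hdl. TRY had 0 to 13.8 in WT and 18.9 and 21.0 in hdl. In the other direction, GL2 was at -1.51 (adjusted p = 0.317) and MYB106 at -0.60 (adjusted p = 0.367). GL2 had 861 to 1320 normalized counts in WT and 107 and 1330.4 in hdl, so only hdl replicate 1 was low. GL2 and MYB106 overlap opposite-strand genes. The part of such overlaps in the low hdl replicate 1 values of GL2, SLAC1 and CYP77A4 was not tested. The sum over all 6 listed trichome markers was 992 to 1434 in WT and 193 and 1453 in hdl. For the suberin list the sum was 398 to 577 in WT and 603 and 626 in hdl, with its CYP86A1 at 0 in every WT library. The part of these markers in the cutin results was not tested.

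The genes outside these lists whose values over the 5 libraries lay closest to the median profile of the 10 cutin genes were AT5G12340, NHX1, AT1G32520, AT3G13040 and AVA-P1. The measure was the root mean square difference of log2 values set to their WT mean, which was 0.0347, 0.0405, 0.0497, 0.0551 and 0.0558. Their log2 changes lay between 1.07 and 1.15.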

How the data were processed

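RNA sequencing of sorted epidermal cells was analysed from 5 libraries, 3 WT and 2 hdl, grouped by the sample titles. Per the labels' protocols, the TruSeq kit was used on 10 to 20 ng of RNA. Per the submitters' processing notes the build was TAIR10 and the tools included Trimmomatic 0.33, Bowtie2 2.5.0, SAMtools 1.16.1 and DESeq2; the sources used here do not give the counting program, its strand setting or the read length. As their gene table the authors deposited a normalized signal, which its name calls DESeq2-normalized counts. Per library, 100% of values were within 0.01 of whole multiples of the smallest value, and division by it gave whole reads. Size factors recomputed from these reads matched the deposited ones in all 5 libraries (ratio 1) with 2 counts per step in hdl replicate 1, and not with 1 per step (ratio 1.149); reads of this library are given here, and entered edgeR and DESeq2, at 1 per step. Normalized values do not depend on this. A deposited raw count table was not used, since it holds none of the 10 genes.

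For the 20391 genes reaching 10 normalized counts in 2 or more libraries, limma 3.58.1 (R 4.3.3) was run on log2(value + 1) of all 5 libraries, with an intensity trend and no covariate. Benjamini-Hochberg adjustment was over all of these, and calls needed an adjusted p under 0.05. edgeR 4.0.16 and DESeq2 1.42.0 on the recovered reads were alternatives (edgeR called 1625 genes higher and 832 lower), beside other pseudocounts, filters, scalings, library sets and a replicate block. All 3 tools were tested on simulated data. Coordinates, exon lengths, strands and upstream sequences come from the RefSeq annotation and genome of TAIR10.1, in which 24108 of 24200 identifiers were found; the authors' build was TAIR10, and no coordinate was taken from the files. Opposite-strand genes overlap 2 of the 10. Intervals and floors cover counting error only where they rest on reads. Ratios between paralogues were compared by an exact permutation test over libraries, two-sided on the size of the difference.

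The 10 genes and the 11 other lists were chosen with earlier results of these data known. All 10 genes are named; in each other list the naming rule takes at most 4 called genes by smallest p, and if there are none, its 2 genes of highest level. Beyond the rule, uncalled markers of the epidermis, guard cell, trichome, mesophyll and vascular lists, SHN1 to SHN3, CYP86A1 and the genes marked in the text were named with their values known. The 5 genes of closest pattern were taken by the rule given with them.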

Additional observations from a re-analysis of the deposited data

How the results depend on the processing

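LACS3, LACS2 and CYP86A2 kept their call in every fit run but those without hdl replicate 1 and with the replicate block; GPAT4 and BDG1 kept theirs in 6 of 12 and 6 of 11. Over all 118 alternative values of the 10 genes, 93 kept direction and side of the threshold, 17 lost the call, 7 gained it and 1 turned: LACS1, which ran from -0.30 to 0.069 without single libraries. The count of cutin genes called higher ran from 0 to 8 when single libraries were left out. Over all genes the corresponding ranges were 0 to 3576 higher and 0 to 2307 lower. With libraries at equal totals 993 genes were higher and 2554 lower, with DESeq2 2619 and 2152, and 4 and 7 cutin genes were called. With edgeR 1625 and 832 genes and 5 cutin genes were called. With the replicate block, which leaves 1 residual degree of freedom, 0 genes were higher and 0 lower, and 0 cutin genes were called. Deviations from the group means correlated at 0.00477 for libraries numbered 1 and -0.0123 for those numbered 2. The deviations of 2 hdl libraries mirror each other, so these values cannot settle whether libraries of the same number were paired. The difference in the CYP86A4 to CYP86A2 ratio turned to -0.40 with a pseudocount of 10 and ranged from -0.96 to 1.57 without single libraries; the other ratios kept their sign. The cause of these shifts was not tested. CYP86A4 rests on 0 to 54 reads per WT library, and all calls rest on 2 hdl libraries.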
